A study of Capra hircus with 12 samples.

Results

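Laminins and nidogens are secreted proteins of the basement membrane and of the pericellular matrix around chondrocytes. A laminin is a trimer of 1 alpha, 1 beta and 1 gamma chain that assembles inside the cell and binds integrins and dystroglycan through its alpha chain. Many laminins, but not all, are cross-shaped and polymerize into a sheet. Nidogens bind the gamma chain and link the laminin sheet to collagen IV and perlecan. In healthy cartilage these proteins lie close to the cell surface rather than in a continuous sheet.

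The 8 genes named for this comparison were LAMA2, LAMA4, LAMA5, LAMB1, LAMB2, LAMC1, NID1 and NID2. They were selected as a family, and the family was selected on the fall of LAMA4 in SLC with LOXL2, so LAMA4 in the SLC libraries is given as a description with no test. LAMA4 was tested in MLC, but it had been picked for a fall with the same treatment. It is therefore not comparable there with unselected genes. A total of 7 of the 8 genes matched 1 of the 28910 genes in the count tables by symbol, and LAMB2 was not analysed here. All 7 passed the filter on low counts in each comparison.

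The data were 12 RNA-seq libraries from cultured goat (Capra hircus) temporomandibular joint (TMJ) cartilage cells, with 3 libraries in each of 4 groups. Superficial layer cells (SLC) and medial layer cells (MLC) were released with collagenase from joints of young animals obtained from an abattoir, and were used after a few passages. Every library had received IL-1β, an inflammatory cytokine, for a short time; the IL-1β + LOXL2 groups had also been transduced overnight with an adenovirus carrying LOXL2, a lysyl oxidase-like enzyme that crosslinks collagen. The study describes an empty virus for flow cytometry of goat TMJ cells but not for the sequenced IL-1β groups, so effects of the virus and of LOXL2 may not be separable here, and untreated cells were not analysed here. No source ties the replicates to separate animals or cultures, so the p-values measure only the spread between these libraries.

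Total counts ranged from 14158607 to 15330697 in MLC IL-1β, 14188227 to 19459045 in MLC IL-1β + LOXL2, 18751323 to 22123593 in SLC IL-1β and 21080134 to 28931652 in SLC IL-1β + LOXL2. The delivered gene was checked first: with LOXL2 treatment, counts of the annotated goat LOXL2 gene differed by -0.27 (log2) in SLC (edgeR adjusted p = 0.106) and by -0.066 in MLC (edgeR adjusted p = 0.595). Whether reads of the delivered gene would count on the goat gene is not given in the sources used here, so these counts do not check the labels, on which the directions rest. The cells had abundant type I collagen, with COL1A1 between 30631 and 37820 CPM (a library's counts scaled to a common total, here with trimmed mean of M-values factors, TMM), whereas the cartilage collagen COL2A1 was between 0 and 20.8 CPM and MATN1 was at 0 in all 12 libraries. Other chondrocyte markers were present, with COL11A1 at 603 to 1290 CPM, ACAN at 29.4 to 435, COMP at 59.2 to 175 and SOX9 at 13.8 to 92.8. The others peaked lower, with HAPLN1 at 4.52 to 24.9 CPM, COL9A1 at 0 to 19.4 and COL11A2 at 0.465 to 4.92. MATN3 was at 0.0654 to 0.599 CPM and COL9A2 at 0 to 0.361. COL11A1 was the highest chondrocyte marker in every library, and so the largest part of their sum. Summed over the 11 of 12 listed chondrocyte markers in the tables, CPM was 1304 to 1430 in SLC IL-1β, 750.2 to 1304 in SLC IL-1β + LOXL2, 1770 to 1919 in MLC IL-1β and 1488 to 1875 in MLC IL-1β + LOXL2. Vascular cells carry much laminin. The 7 endothelial markers summed to between 2.92 and 5.23 CPM in any library, with VWF at 1.18 to 4.22 CPM and TEK at 0.325 to 1.55. PECAM1 had at most 0.413 CPM, KDR 0.155, CDH5 0.0912 and TIE1 0.0704, and EMCN was at 0. The 6 pericyte and smooth muscle markers, led by ACTA2, summed to 1940 to 2375 CPM in SLC IL-1β, 2090 to 2467 in SLC IL-1β + LOXL2, 1348 to 1526 in MLC IL-1β and 1600 to 1913 in MLC IL-1β + LOXL2. Of these, ACTA2 had 801 to 2002 CPM, PDGFRB 164 to 404, CSPG4 79.2 to 405 and MYH11 24.9 to 38.2. RGS5 had at most 1.08 CPM and DES at most 0.572. The part of such cells in the results was not tested, and in bulk libraries fewer cells of a type and less RNA per cell cannot be told apart.

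In MLC with LOXL2, LAMA4, LAMA5, LAMC1, NID1 and NID2 fell, that is, 2 laminin alpha chains, the gamma chain and both nidogens, where 11.8% of all genes tested fell. LAMA4 had been picked for its fall with LOXL2 in SLC, so that share is no fair background for it. All 5 calls were lost with all 12 libraries in 1 fit and when any 1 of 3 libraries was left out. Of the 7 genes, 3 were called lower without replicate 2 of MLC IL-1β, beside 4.41% of all genes. Without replicate 3 of MLC IL-1β + LOXL2, 2 were (2.82% of all genes), and without its replicate 1, 7 were (24.4%). The calls of LAMA4 and NID1 were also lost when a trend with gene span was removed. All 7 genes had a negative log2 fold change, with a median of -0.51 beside 0.0079 over the 13664 genes tested. The largest was that of LAMA5, at -0.88. In SLC the fold changes were negative for all 6 genes tested, that is, without LAMA4, but 0 of the 6 passed the threshold. The layers differed under IL-1β alone in LAMA2, which was higher in MLC, and in LAMB1, which was higher in SLC, where 24.2% of all genes were called higher in MLC and 22.7% lower; LAMA2 did not pass with all 12 libraries in 1 fit.

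**Figure D1:**
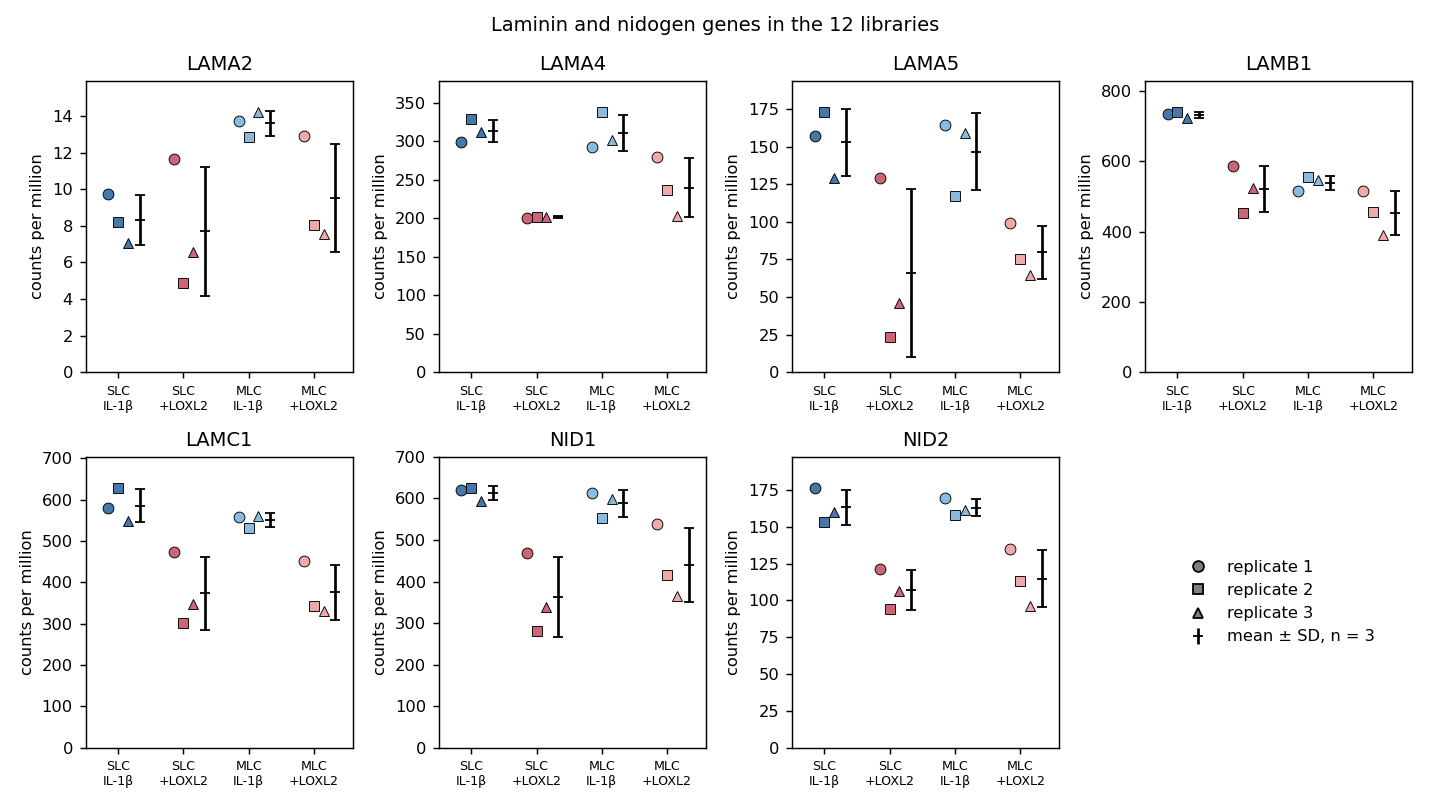
CPM (vertical axis, from 0) of the 7 genes in the 4 groups, 1 panel per gene; each point is 1 library, with its shape giving the replicate number, and the bar is the mean ± SD of 3 libraries. In the 3 SLC IL-1β + LOXL2 libraries LAMA4 sits between 200.2 and 202 CPM under this TMM scaling (189 to 208 under total counts), and LAMA5 runs from 23.1 to 129 CPM.

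The alpha chains give a laminin its receptor binding. LAMA4, the gene for the alpha chain found in vessel, muscle and fat basement membranes (chromosome 9, 25512853 to 25661234 in the goat assembly ARS1.2), had 299.5, 328 and 312 CPM in replicates 1, 2 and 3 of SLC IL-1β. In SLC IL-1β + LOXL2 it had 200.2, 202 and 202 CPM. The means were 201 ± 1.03 CPM (SD, n = 3) with LOXL2 and 313 ± 14.5 without, and the groups did not overlap. The closeness of the 3 LOXL2 libraries came with the scaling: with CPM of total counts they had 208, 189 and 199, at 199 ± 9.83, beside an SD of 12.8 in SLC IL-1β. The log2 difference, which chose the family, was -0.65.

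In MLC, LAMA4 had 292, 338 and 302 CPM with IL-1β and 279, 237 and 203 CPM with IL-1β + LOXL2. All 3 LOXL2 libraries were below all 3 IL-1β libraries, with replicate 1 nearest to them. LAMA4 fell by 0.38 on the log2 scale (standard error, SE, 0.11, edgeR quasi-likelihood test with Benjamini-Hochberg adjustment, adjusted p = 0.0367). Leaving out replicate 1 of MLC IL-1β + LOXL2 gave a log2 fold change of -0.50 (edgeR adjusted p = 1.73e-04). Leaving out any of the other 5 libraries ended the call, with log2 fold changes from -0.42 to -0.27 and edgeR adjusted p from 0.0891 to 0.139. The group mean was 311 ± 23.9 CPM in MLC IL-1β and 239 ± 38.3 in MLC IL-1β + LOXL2. In order of their means the groups ran SLC IL-1β, MLC IL-1β, MLC IL-1β + LOXL2 and SLC IL-1β + LOXL2, and the first pair of neighbours overlapped, as did the last pair with total-count scaling.

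LAMA5 encodes the most widespread alpha chain of adult basement membranes (chromosome 13, 54199069 to 54237112). With IL-1β in MLC it had 165, 117 and 159 CPM. With IL-1β + LOXL2 in MLC it had 99.0, 75.6 and 64.4 CPM. These groups did not overlap, and LAMA5 fell by 0.88 on the log2 scale (SE 0.16, edgeR adjusted p = 0.0190).

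In SLC, LAMA5 had 157, 173 and 129 CPM with IL-1β and 129, 23.1 and 45.7 CPM with IL-1β + LOXL2. Replicate 1 of the LOXL2 group was level with the lowest IL-1β library, and the other LOXL2 libraries were far below it. The log2 fold change was -1.22 with an SE of 0.56 (edgeR adjusted p = 0.130). Without that replicate 1 it was -2.19 (edgeR adjusted p = 3.9e-05), and without any of the other 5 libraries it ran from -1.34 to -0.81, with edgeR adjusted p from 0.183 to 0.321.

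LAMA2 encodes the main alpha chain of muscle and peripheral nerve (chromosome 9, 54306124 to 54983404), where its loss causes congenital muscular dystrophy. It was at a low level, with 9.76, 8.20 and 7.06 CPM in SLC IL-1β and 11.7, 4.89 and 6.56 CPM in SLC IL-1β + LOXL2. MLC IL-1β had 13.7, 12.9 and 14.2 CPM, and MLC IL-1β + LOXL2 had 12.9, 8.08 and 7.59 CPM. The MLC IL-1β libraries lay above all SLC libraries, while each LOXL2 group overlapped the IL-1β group of its layer. The log2 fold change with LOXL2 was -0.51 (SE 0.19) in MLC and -0.13 (SE 0.32) in SLC, with edgeR adjusted p = 0.0675 and 0.768. The span of LAMA2 also holds a transcribed pseudogene, LOC108636729, so some of its reads may not be its own.

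LAMB1, the gene for the commonest beta chain (chromosome 4, 71228918 to 71305310), had 735, 740.0 and 722 CPM in SLC IL-1β and 586, 453 and 524 CPM in SLC IL-1β + LOXL2. MLC IL-1β had 517, 555 and 546 CPM, and MLC IL-1β + LOXL2 had 516, 454 and 389.8 CPM. The SLC IL-1β libraries were above the other 9 libraries, whose values ran into each other. The log2 fold change with LOXL2 was -0.51 (SE 0.13) in SLC and -0.25 (SE 0.10) in MLC, with edgeR adjusted p = 0.0706 and 0.0888.

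LAMC1, the gene for the gamma chain of most laminins and the chain that nidogen binds (chromosome 16, 62678983 to 62800726), had 559, 531 and 562 CPM in MLC IL-1β and 453, 343 and 332 CPM in MLC IL-1β + LOXL2. It fell by 0.55 on the log2 scale (SE 0.11, edgeR adjusted p = 0.0194). In SLC it had 579, 629 and 549 CPM with IL-1β and 472, 302 and 347 CPM with IL-1β + LOXL2. The groups did not overlap in either layer, and the SLC log2 fold change was -0.66 (SE 0.18, edgeR adjusted p = 0.0706).

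NID1 encodes the first nidogen to be described, the link from laminin to collagen IV (chromosome 28, 36587881 to 36687276). In MLC it had 614, 552 and 598 CPM with IL-1β and 539, 415 and 365 CPM with IL-1β + LOXL2. It fell by 0.42 on the log2 scale (SE 0.13, edgeR adjusted p = 0.0356), with replicate 1 of the LOXL2 group just below the lowest IL-1β library. In SLC it had 621, 625 and 594 CPM with IL-1β and 469, 281 and 339 CPM with IL-1β + LOXL2. The SLC groups lay apart, at a log2 fold change of -0.77 (SE 0.19, edgeR adjusted p = 0.0706).

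NID2, the paralog that can replace NID1 in most basement membranes (chromosome 10, 58113795 to 58201073), had 169.7, 158 and 161 CPM in MLC IL-1β and 135, 113 and 96.1 CPM in MLC IL-1β + LOXL2. It fell by 0.51 on the log2 scale (SE 0.12, edgeR adjusted p = 0.0205), and the groups did not overlap. In SLC it had 176, 153 and 159.8 CPM with IL-1β and 121, 94.1 and 106 CPM with IL-1β + LOXL2. The SLC log2 fold change was -0.62 (SE 0.13, edgeR adjusted p = 0.0706), again with no overlap.

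The balance of the nidogens was measured as NID2 counts over NID1 counts in each library. The ratio was 0.266 ± 0.0194 (SD, n = 3) in SLC IL-1β, 0.302 ± 0.0391 in SLC IL-1β + LOXL2, 0.278 ± 0.00840 in MLC IL-1β and 0.262 ± 0.0111 in MLC IL-1β + LOXL2. On the log2 scale the ratio differed with LOXL2 by -0.083 in MLC (two-sided exact permutation test, p = 0.2) and by 0.18 in SLC (exact permutation p = 0.3). With 3 libraries against 3 this test cannot go below 0.1, so no shift between the nidogens could be called in either layer.

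The threshold was an adjusted p of 0.05. In MLC 5 of 7 genes were called lower and 0 higher, where 11.8% of all genes tested were called lower and 9.81% higher. The 5 include LAMA4, picked for its fall with LOXL2 in SLC, for which the 11.8% is no fair background. The others called were LAMA5, LAMC1, NID1 and NID2. LAMA2 and LAMB1 were the members that did not pass. All LOXL2 libraries lay below all IL-1β libraries for 6 of the 7 genes, LAMA2 being the exception, and for 20.5% of all genes tested. The count of 5 depended on single libraries. It was 0 without replicate 1 or replicate 3 of MLC IL-1β or without replicate 2 of MLC IL-1β + LOXL2, where 0 genes were called in the whole table by edgeR and 5 to 7 of the 7 had an unadjusted p under 0.05. In the same order, so had 3971 of 13853, 3782 of 13825 and 3677 of 13869 of all genes. The count of members was 3 without replicate 2 of MLC IL-1β, when 4.41% of all genes were called lower. Without replicate 3 of MLC IL-1β + LOXL2 it was 2, when 2.82% were. Without replicate 1 of MLC IL-1β + LOXL2 it was 7, when 24.4% of all genes were called lower. With all 12 libraries in 1 edgeR fit it was 0, as for all genes, with 5 of the 7 and 3728 of 14534 genes at an unadjusted p under 0.05. The DESeq2 Wald test called 6 of the 7 lower and 13% of all genes.

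In SLC, edgeR called 0 of the 6 genes tested and 0% of all genes, although 4 of the 6 and 6108 of 14103 genes had an unadjusted p under 0.05. LAMB1, LAMC1, NID1 and NID2 share a tied edgeR adjusted p of 0.0706, at unadjusted p from 0.0016 to 0.0071. It therefore does not rank these genes. The 6 genes had a median log2 fold change of -0.64 beside 0.013 over all genes. Without LAMA4, 4 genes (LAMB1, LAMC1, NID1 and NID2) had no overlap between groups, while LAMA2 and LAMA5 overlapped; LOXL2 libraries lay below all IL-1β libraries for 23.5% of all genes. The DESeq2 Wald test called these 4 genes lower, with adjusted p = 0.00755 for LAMB1, 0.0109 for LAMC1, 0.00622 for NID1 and 0.00276 for NID2, and 14% of all genes lower. With all 12 libraries in 1 edgeR fit, 5 of 6 were called lower beside 18.5% of all genes.

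Replicate 1 of SLC IL-1β + LOXL2 stood apart from the other LOXL2 libraries. It had the highest value of its group for 6 of the 7 genes, all but LAMA4, and lay below all IL-1β libraries for 5 of the 7 genes, against 7 of 7 for each of replicates 2 and 3. Its median log2 distance from the IL-1β mean over the 7 genes was -0.32, where replicates 2 and 3 had -0.79 and -0.63. The 7 genes include LAMA4, whose fall in SLC chose the family, so these counts and medians are a description only. They were not computed over all genes. Without replicate 1 of SLC IL-1β + LOXL2, all 6 genes tested were called lower beside 30.8% of all genes, among them NID1 at a log2 fold change of -1.01, LAMC1 at -0.88 and LAMA2 at -0.57. Replicate 1 of MLC IL-1β + LOXL2 was likewise the highest of its group for all 7 genes, with a median distance of -0.15 against -0.53 and -0.73.

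**Figure D2:**
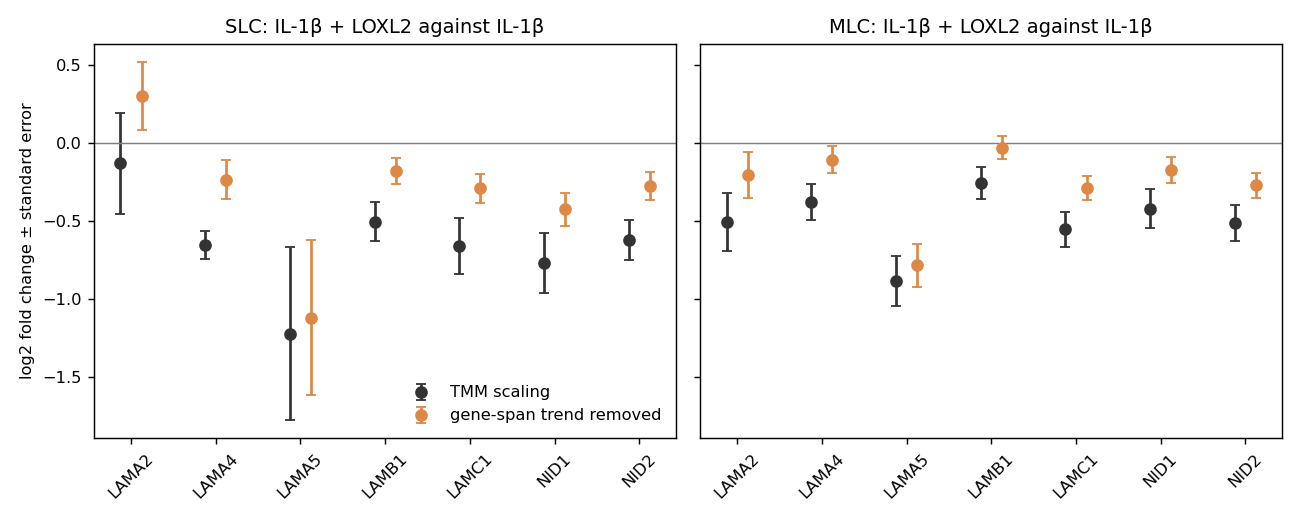
Log2 fold change of IL-1β + LOXL2 against IL-1β (vertical axis, points) with its standard error (bars) for the 7 genes in SLC (left) and MLC (right), under TMM scaling and after a trend with gene span was removed. Removing the trend brought LAMA4 in MLC from -0.38 to -0.11 and left LAMA5 in MLC at -0.78.

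Fold changes with LOXL2 moved with the genomic span of a gene in these libraries, and most laminin and nidogen genes are long. The spans were 677281 bases for LAMA2, 148382 for LAMA4, 121744 for LAMC1, 99396 for NID1, 87279 for NID2, 76393 for LAMB1 and 38044 for LAMA5, beside a median of 20451 over the tested genes with a span. Over genes, which are not independent replicates, Spearman's rho of log2 fold change with span was -0.49 in MLC (13637 genes) and -0.49 in SLC (14073 genes). The 1366 longest genes in MLC and the 1404 longest in SLC had a median log2 fold change of -0.30 and -0.44, and the 1245 and 1351 shortest had 0.29 and 0.49. Under IL-1β alone, the layer difference had a rho with span of -0.12, and under IL-1β + LOXL2 it had 0.075. The difference between the LOXL2 effects of the layers, MLC minus SLC, had a rho of 0.33.

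With the span trend removed in MLC, 3 of 7 genes were called lower beside 6.87% of all genes. These were LAMA5 at -0.78 (edgeR adjusted p = 0.0193), LAMC1 at -0.29 (adjusted p = 0.0298) and NID2 at -0.27 (adjusted p = 0.0440). LAMA4 was at -0.11 (edgeR adjusted p = 0.403). In SLC the same step gave -1.12 for LAMA5, -0.43 for NID1, -0.29 for LAMC1, -0.28 for NID2, -0.23 for LAMA4 and -0.18 for LAMB1, turned LAMA2 to 0.30, and left 0 genes called. LAMA5, the shortest of the 7, kept the largest fold change in both layers. What ties fold change to span was not tested.

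**Figure D3:**
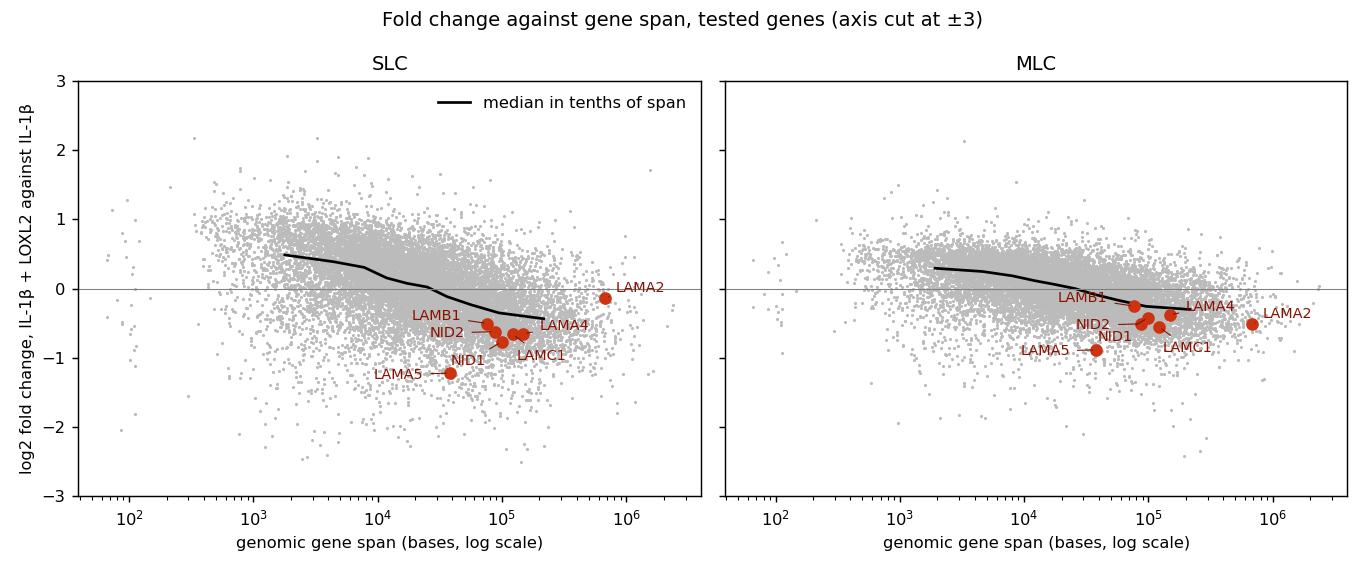
Log2 fold change of IL-1β + LOXL2 against IL-1β (vertical axis, shown from -3 to 3) against genomic span in bases (horizontal log axis) for every tested gene (grey), in SLC and MLC, with the median in 10 bins of span as a line and the 7 genes in red. The line falls from left to right in both panels; LAMA5 lies far below it, while LAMA4 and LAMB1 in MLC lie near it.

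The layers were compared within each treatment, as MLC against SLC. Cell layer and anything else that differed between the cell preparations cannot be told apart. Under IL-1β, LAMA2 was higher in MLC, at 13.6 ± 0.682 CPM against 8.34 ± 1.36, a log2 difference of 0.71 (SE 0.13, edgeR adjusted p = 3.49e-04). LAMB1 was lower in MLC, at 539 ± 19.9 CPM against 732 ± 9.10, a log2 difference of -0.44 (SE 0.058, edgeR adjusted p = 2.52e-05). The libraries of the layers did not overlap for either gene.

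That is 1 higher and 1 lower of 6 genes tested, where 24.2% of all genes were called higher and 22.7% lower, so the count is near the background. Both calls stood with any 1 of the 6 libraries left out. With all 12 libraries in 1 fit, LAMB1 passed (edgeR adjusted p = 0.0130, with 11.4% of all genes lower) and LAMA2 did not (adjusted p = 0.0910). The other 4 genes lay close together in the layers, with log2 differences of -0.086 for LAMC1, -0.058 for NID1, -0.057 for LAMA5 and 0.0020 for NID2, and edgeR adjusted p between 0.294 and 0.983. LAMA4, given without a test because its SLC libraries chose the family, differed by -0.0091.

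Under IL-1β + LOXL2, 0 of the 6 genes passed by edgeR or by DESeq2, 0 had an unadjusted p under 0.05, and the log2 differences ran from -0.19 for LAMB1 to 0.32 for LAMA2. Of all genes, 9.27% were called higher in MLC and 6.83% lower. LAMA4 was higher in MLC by 0.26 on the log2 scale, a description only, with 203 to 279 CPM against 200.2 to 202 and no overlap; scaled by total counts the groups overlapped, at 198 to 278 against 189 to 208. Without replicate 1 of SLC IL-1β + LOXL2, LAMA5 (1.24, edgeR adjusted p = 0.00960) and NID1 (0.53, adjusted p = 0.0451) were called higher in MLC, as were 16.8% of all genes. The libraries follow the replicate number in part in this comparison, with 4 of 6 libraries correlating best with their own number. With this number as a block, 3887 genes were called in place of 2268, and 0 of the 6 genes tested.

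Whether LOXL2 acted differently in the layers was tested as an interaction over all 12 libraries. By edgeR 0 of 6 genes and 0% of all 14534 genes tested passed, with 0 of the 6 and 328 of all genes at an unadjusted p under 0.05, and DESeq2 also called 0. The difference in log2 fold change, MLC minus SLC, ran from -0.39 for LAMA2 to 0.34 for NID1. LAMA4, not tested, had 0.26. The median over the 6 genes was 0.17, and 0.075 with the span trend removed. Without replicate 1 of SLC IL-1β + LOXL2 it was 0.32. There edgeR called 0 of the 6, while 3 of them and 3987 of 14718 genes had an unadjusted p under 0.05. With any other library left out, at most 1 of the 6 did. A smaller fold change in MLC than in SLC is therefore not shown for any of these genes.

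The partners of laminin in the basement membrane were taken from a list of 40 genes, of which 28 passed the filter on counts. The other 12, among them LAMA1, COL4A3 and COL4A5, had at most 17 reads in any library. In MLC with LOXL2, 5 of the 28 fell and 3 rose, where 11.8% of all genes fell and 9.81% rose, and the median log2 fold change was -0.090. With all 12 libraries in 1 edgeR fit 0 of the 29 partners tested there were called. An unadjusted p under 0.05 was found for 6 of them and for 3728 of 14534 genes. Perlecan (HSPG2, the heparan sulfate proteoglycan that nidogen binds) fell by 0.39 (SE 0.10, edgeR adjusted p = 0.0248) and COL15A1, a collagen at the outer face of basement membranes, fell by 0.32 (SE 0.099, edgeR adjusted p = 0.0397). HMCN1 (hemicentin) fell by 0.74, NTN1 (netrin, a guidance cue related to laminin) by 0.51 and ITGA6, an integrin subunit that binds laminin, by 0.68, with edgeR adjusted p from 0.0194 to 0.0229.

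The partners that rose were COL18A1, the precursor of endostatin, at 0.83 (SE 0.27, edgeR adjusted p = 0.0473), the calcium-binding protein SMOC2 at 0.34 (adjusted p = 0.0255) and FBLN2 (fibulin) at 0.32 (adjusted p = 0.0421). The collagen IV chains, to which nidogen links laminin, had -0.15 for COL4A1 and 0.12 for COL4A2, with edgeR adjusted p = 0.319 and 0.384. Of the 3 other laminin chains tested, LAMA3, LAMB3 and LAMC3, 0 passed, and of 7 laminin receptors ITGA6 alone did. With the span trend removed, 5 partners were called higher and 2 lower, where 7.79% of all genes were higher and 6.87% lower, and COL4A1 turned to 0.12. With 1 library left out, between 0 and 14 partners were called, 14 without replicate 1 of MLC IL-1β + LOXL2 (48.1% of all genes) and 0 without replicate 1 or 3 of MLC IL-1β or replicate 2 of MLC IL-1β + LOXL2. In SLC 0 of the 28 passed by edgeR, while 8 of them and 6108 of 14103 genes had an unadjusted p under 0.05. DESeq2 called 8 partners (30% of all genes). The edgeR log2 fold changes were -0.82 for HSPG2 (edgeR adjusted p = 0.0706) and -0.24 for COL4A1 (edgeR adjusted p = 0.122).

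**Figure D4:**
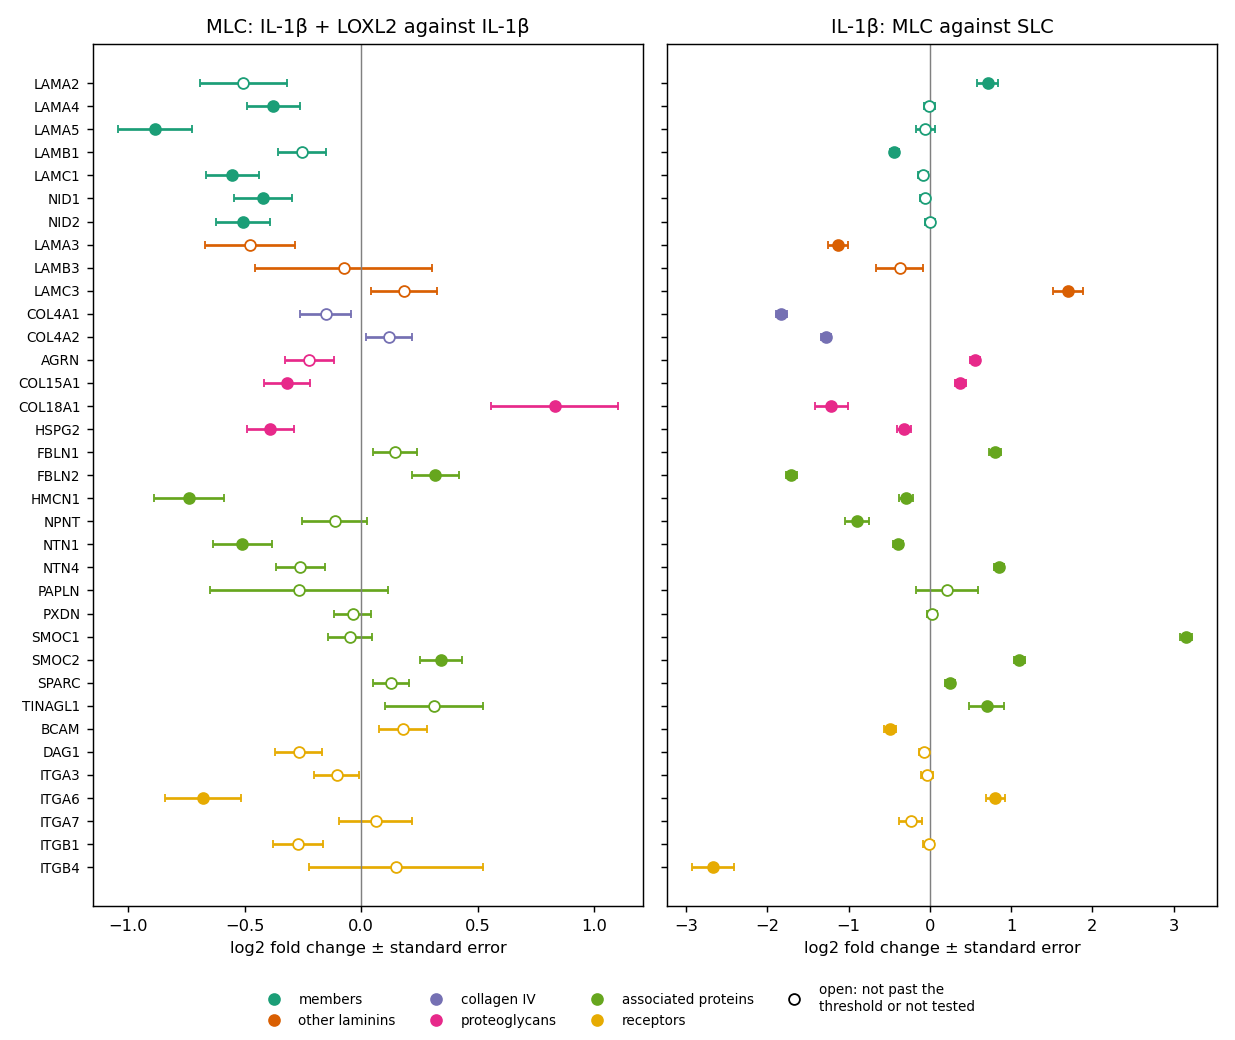
Log2 fold change (horizontal axis, points) with its standard error (bars) for the 7 genes and 28 tested partners, coloured by class, for LOXL2 in MLC (left) and for MLC against SLC under IL-1β (right); filled points passed an adjusted p of 0.05, open points did not or, for LAMA4 on the right, were not tested. On the left all 7 laminin and nidogen points lie below 0; on the right the partners spread from -2.67 (ITGB4) to 3.15 (SMOC1) while 5 of the 7 genes lie near 0.

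Between layers under IL-1β, 10 of the 28 partners were higher in MLC and 11 lower, where 24.2% of all genes were higher and 22.7% lower. SMOC1, a modulator of BMP signalling, led those higher at 3.15 with LAMC3, a rarer gamma chain, at 1.70 and SMOC2 at 1.10. ITGB4, the hemidesmosome integrin subunit, led those lower at -2.67 with COL4A1 at -1.83, FBLN2 at -1.70 and COL4A2 at -1.28. Thus the collagen IV chains were lower in MLC, as was LAMB1 at -0.44, while LAMA2 was higher at 0.71. LAMA5, LAMC1, NID1 and NID2 had log2 differences between -0.086 and 0.0020. Under IL-1β + LOXL2, 6 of the 28 were higher and 7 lower, where 9.27% of all genes were higher and 6.83% lower, led by SMOC1 at 3.28 and ITGB4 at -2.23, with COL4A1 at -1.74 and COL4A2 at -1.03.

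The 5 genes whose level was most like that of LAMA4 over the 12 libraries, by Pearson's r of log2 CPM, were NAB1 (0.975), ASB1 (0.967), NFKBIZ (0.960), SLC39A14 (0.958) and FBN2 (0.956). The 12 libraries share treatment and layer groups, and 6 of them are the SLC libraries that chose LAMA4, so r is given as a description only. Among the family, r with LAMA4 was 0.904 for NID2, 0.876 for NID1, 0.852 for LAMC1, 0.737 for LAMA5, 0.635 for LAMB1 and 0.506 for LAMA2.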

How the data were processed

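The deposited tables held raw read counts per gene for 12 libraries (poly-T selected mRNA, paired-end sequencing). The authors aligned reads to the goat assembly ARS1.2 and counted them with featureCounts; HISAT2 is in the submitters' processing notes. Versions, strand setting and handling of multiply mapped reads are not given in the sources used here. Libraries were grouped by label.

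The counts were filtered with filterByExpr (minimum count 10, minimum total 15), scaled by TMM and tested with edgeR 4.0.16 (quasi-likelihood test, R 4.3.3, Benjamini-Hochberg adjustment over all genes, threshold 0.05) on the 6 libraries of each comparison, or all 12 for the interaction. CPM used TMM factors over all 12 libraries; log2 CPM used a prior count of 2. DESeq2 1.42.0 was an alternative, as were other scaling, no filter, a minimum log2 fold change of 1, a span trend removed by lowess (span 0.3), a replicate block and leaving out each library. Scripts were tested on simulated data. Levels per length and LAMB2 to LAMB1 ratios, which had been planned, were not computed: transcript lengths and LAMB2 were not analysed here, so levels are compared within a gene only. Coordinates are from the RefSeq gene table for ARS1.2.

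The members, the partner list and the marker lists were chosen with earlier results of these data known. The text names all members, the partners that passed in MLC, and the collagen IV, perlecan and other leading partners. Same-numbered libraries deviated together between the layers under IL-1β + LOXL2 (correlations of deviations 0.605, 0.206 and 0.168); the pairing comes from the data, not from the labels.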

Additional observations from a re-analysis of the deposited data

How the results depend on the processing

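The number of members called lower with LOXL2 in MLC, 5 as reported, was 3 with the span trend removed, 0 with all 12 libraries in 1 fit, 0 with a minimum log2 fold change of 1, and between 0 and 7 with 1 library left out. The number in SLC, 0 as reported, was 4 with the DESeq2 Wald test, 5 with all 12 libraries in 1 fit, and between 0 and 6 with 1 library left out. Between layers under IL-1β, 2 members were called, 1 with all 12 libraries in 1 fit and 0 with the minimum fold change. Under IL-1β + LOXL2 the count ran from 0 to 2 with 1 library left out and was 1 with both first LOXL2 libraries left out, an alternative chosen after seeing the data. The cause of these changes was not tested. Fewer samples enter when libraries are left out, and the calls then fell in some cases and rose in others. Without replicate 1 of IL-1β + LOXL2, 6653 genes were called in MLC and 8849 in SLC, in place of 2958 and 0.

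Removing the span trend turned the direction of COL4A1 in MLC (to 0.12) and of LAMA2 (0.30), COL4A1 (0.16) and COL4A2 (0.29) in SLC, and of NID1 between layers under IL-1β (0.011). The layer difference of NID2 under IL-1β was -0.0092 with no filter and -0.0013 with all 12 libraries in 1 fit. With 1 library left out, log2 fold changes ran from -0.57 to 0.12 for LAMA2 with LOXL2 in SLC, -0.16 to 0.082 for LAMA5 and -0.044 to 0.062 for NID2 between layers under IL-1β, and -0.011 to 0.29 for HSPG2 between layers under IL-1β + LOXL2. None of these was called as reported.

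With the replicate number as a block, 6 members and 4053 genes were called in MLC in place of 5 and 2958, 0 and 0 in SLC as without it, and 5816 genes in place of 6548 between layers under IL-1β. In these comparisons the numbers did not clearly pair the libraries, with correlations of deviations of 0.081, 0.110 and -0.052 in MLC. The libraries that correlated best with their own number were 3 of 6 in MLC, 2 of 6 in SLC and 0 of 6 between layers under IL-1β. Between layers under IL-1β + LOXL2 they were 4 of 6. LAMA2 had the fewest reads of the members, at 4.89 to 14.2 CPM, and an effect of depth was not tested.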
